A study of Mus musculus with 15 samples.

Results

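Among the 17752 genes listed in the ileum of mice given proanthocyanidins (PAC), 10 genes of T cells and intraepithelial lymphocytes were followed by name: Cd3e, Cd3g, Cd8a, Cd8b1, Itgae, Gzma, Gzmb, Cd160, Ccl5 and Nkg7. All 10 were listed in each of the 15 mice and passed the filter on low counts, as did 14386 genes in all. The mice were female C57BL/6 animals (C57BL/6JOlaHsd in the methods) of 8 weeks on a purified diet, and the labels give no other allele or agent for any group. They received water (5 mice), low mDP PAC (5 mice) or medium mDP PAC (5 mice) by gavage, the PAC at 200 mg/kg, every 2 days for 10 days. PAC are polymers of flavan-3-ol units, here from grape, and mDP is their mean degree of polymerization, so the 2 PAC groups differed in polymer size. In the labels the last group carries the name high molecular weight PAC, and it is called medium mDP PAC here after the naming of the study. Each library was made from ileal tissue of 1 mouse, and the labels give the tissue as intestinal.

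Intraepithelial lymphocytes are T cells that sit between the epithelial cells of the gut. Many of them carry CD8, store granzymes and are held in the epithelium by an integrin that binds E-cadherin. Other T cells of the ileum lie in the lamina propria and, beside B cells, in Peyer's patches. In RNA of unsorted tissue, fewer cells of a type and less RNA per cell cannot be told apart.

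The tissue carried the defining genes of these cells at a range of levels. The means of Ccl5 and Gzma were above those of 88.5% and 83.3% of all tested genes, and that of Cd8b1 above 21.8%. FPKM, fragments scaled to gene length and library size, ranks the genes per length. By the mean FPKM of the 15 mice, the order was Ccl5 (48.1), Gzma (32.8), Cd3g (10.4), Cd3e (7.0), Gzmb (6.40), Nkg7 (5.87), Itgae (4.17), Cd8a (4.09), Cd160 (2.06) and Cd8b1 (1.96). Ccl5 exceeded Gzma, Gzma exceeded Cd3g, Cd3g exceeded Cd3e and Cd8a exceeded Cd160 in 15 of 15 mice, and Nkg7 exceeded Itgae in 14 of 15. The neighbours Cd3e and Gzmb (10 of 15 mice), Gzmb and Nkg7 (7 of 15), Itgae and Cd8a (10 of 15) and Cd160 and Cd8b1 (10 of 15) changed places between mice. The NK cell genes Ncr1 and Klrb1c, which mark another lymphocyte that uses granzymes and Nkg7, reached at most 0.80 FPKM each. T cell receptor constant region genes were not analysed here. Library totals ran from 15963086 to 17903886 expected counts. The counts of the 10 genes lay between 15 for Cd8b1 in 1 mouse (95% exact Poisson interval 8.40 to 24.7, counting error only) and 758 for Gzma in another.

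The genes lie on 7 chromosomes of GRCm38, and 2 pairs are neighbours. Cd3g (chr9:44969572-44980431, minus strand) and Cd3e (chr9:44998740-45009627, minus strand) are separated by 18309 bases. Cd8b1 (chr6:71322788-71337494, plus strand) and Cd8a (chr6:71373427-71379173, plus strand) are separated by 35933 bases. The others are Itgae (chr11:73090583-73147446, plus strand), Ccl5 (chr11:83525778-83530518, minus strand), Gzma (chr13:113093825-113100981, minus strand), Gzmb (chr14:56258838-56262260, minus strand), Cd160 (chr3:96798763-96829351, minus strand) and Nkg7 (chr7:43437073-43438249, plus strand). All are protein coding in the GENCODE annotation. Of the terms that the files attach to genes, 4 of the 10 share the external side of the plasma membrane, which 1.36% of all tested genes carry.

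Promoters of 4 genes are shown because Cd3g and Cd8a, genes of the antigen receptor and its coreceptor, varied together from mouse to mouse, as did the granzyme genes Gzma and Gzmb. Each run is the 250 bases before the start of the transcript in RefSeq (GRCm38.p6), on the strand of the gene. Capitals mark TGTGGT or its reverse complement ACCACA, the letters that RUNX factors are known to bind.
Cd3g, chr9:44980432-44980681, minus strand: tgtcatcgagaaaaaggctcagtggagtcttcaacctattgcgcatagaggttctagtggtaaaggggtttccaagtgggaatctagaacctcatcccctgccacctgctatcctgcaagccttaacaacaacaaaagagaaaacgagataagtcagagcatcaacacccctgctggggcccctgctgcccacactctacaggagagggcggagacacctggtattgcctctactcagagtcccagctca
Cd8a, chr6:71373177-71373426, plus strand: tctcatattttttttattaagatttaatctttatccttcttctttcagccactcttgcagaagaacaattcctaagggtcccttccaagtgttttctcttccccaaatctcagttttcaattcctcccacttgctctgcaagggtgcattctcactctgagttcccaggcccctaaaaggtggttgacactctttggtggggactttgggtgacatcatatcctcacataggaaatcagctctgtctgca
Gzma, chr13:113100982-113101231, minus strand: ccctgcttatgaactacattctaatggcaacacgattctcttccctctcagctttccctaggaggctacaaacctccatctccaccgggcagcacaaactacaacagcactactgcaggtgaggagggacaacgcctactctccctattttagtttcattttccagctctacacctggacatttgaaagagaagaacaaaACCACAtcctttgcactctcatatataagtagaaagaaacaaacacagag
Gzmb, chr14:56262335-56262584, minus strand: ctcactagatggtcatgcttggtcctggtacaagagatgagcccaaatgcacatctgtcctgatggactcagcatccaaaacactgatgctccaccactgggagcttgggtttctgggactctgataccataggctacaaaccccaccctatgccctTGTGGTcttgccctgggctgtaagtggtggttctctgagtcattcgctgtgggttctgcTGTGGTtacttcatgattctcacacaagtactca
RefSeq promoters were matched for 7 of the 10 genes (8 promoters, 2 of them for Cd160), and Itgae, Cd8b1 and Ccl5 are named only. Among the 8 promoters, 5 held these letters on either strand, namely those of Gzma, Gzmb, Nkg7 and both of Cd160, against 14.0% of 32851 RefSeq promoters of the same length. The letters AGGAAG of the ETS family were in 4 of the 8 against 29.5%, and GGTGTG of the T-box family in 3 of the 8 against 16.3%. In 1 Cd160 promoter the RUNX and T-box letters overlap. Nkg7 and Cd160, whose promoters held the RUNX letters, also varied with Cd3g (Pearson's r = 0.92 and 0.80, group means subtracted), as Cd8a did (0.87). The promoters shown therefore do not stand for all genes that varied together. These matches are descriptions of letters, not of bound sites.

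CD3 epsilon and CD3 gamma, encoded by Cd3e and Cd3g, are signalling subunits that every T cell receptor needs at the surface. Cd3e stood at 7.53, 4.94, 10.2, 5.86 and 9.37 FPKM in the 5 water mice. It stood at 4.92, 4.75, 7.37, 7.07 and 7.11 FPKM in the low mDP PAC mice. In the medium mDP PAC mice it stood at 9.74, 4.83, 11.6, 6.09 and 3.59 FPKM. The lowest and the highest mouse of all 15 both belonged to the medium mDP PAC group, and the 3 groups overlapped. The fold change of Cd3e was -0.19 ± 0.28 (log2, SE) for medium mDP PAC against water and -0.34 ± 0.28 for low mDP PAC against water. Cd3g averaged 11.02 ± 3.74 FPKM (SD, n = 5) for water, 9.08 ± 1.01 for low mDP PAC and 11.1 ± 5.25 for medium mDP PAC, and the groups overlapped here too. The ratio of Cd3g to Cd3e stayed between 1.19 and 1.80 in all 15 mice.

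CD8 alpha and CD8 beta, encoded by Cd8a and Cd8b1, form the coreceptor of cytotoxic T cells. CD8 alpha can also pair with itself, a form known from intraepithelial lymphocytes. Cd8b1 varied more between mice than any other gene of the list, from 0.64 to 4.26 FPKM. It measured 2.18, 1.01, 3.04, 1.01 and 2.96 FPKM in the water mice. With low mDP PAC it measured 0.77, 1.09, 1.44, 2.20 and 2.18 FPKM. With medium mDP PAC it measured 4.19, 1.02, 4.26, 1.39 and 0.64 FPKM. Of the medium mDP PAC mice 2 stood above every other mouse of the study and 1 stood below all of them. The log2 fold change of Cd8b1 for medium mDP PAC against water was poorly determined, 0.06 with a 95% confidence interval from -0.98 to 1.10. Cd8a ranged from 2.84 to 6.73 FPKM for water, from 2.99 to 4.81 for low mDP PAC and from 1.90 to 5.41 for medium mDP PAC. There was more Cd8a than Cd8b1 per length in all 15 mice, with a ratio of Cd8b1 to Cd8a between 0.25 and 0.83. This ratio averaged 0.43 ± 0.16 (SD, n = 5) for water, 0.40 ± 0.13 for low mDP PAC and 0.53 ± 0.25 for medium mDP PAC.

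Itgae encodes CD103, the integrin chain that pairs with beta 7 integrin and binds E-cadherin on epithelial cells. It was the gene of the list whose groups stood furthest apart for their spread. In the water mice Itgae measured 4.67, 4.26, 6.22, 4.44 and 4.45 FPKM. The low mDP PAC mice had 3.87, 4.05, 4.16, 3.57 and 5.20 FPKM. The medium mDP PAC mice had 3.82, 3.25, 3.89, 4.13 and 2.58 FPKM. All 5 medium mDP PAC mice were below all 5 water mice, while the low mDP PAC mice overlapped with both groups. The mean was 4.81 ± 0.80 FPKM (SD, n = 5) for water, 4.17 ± 0.62 for low mDP PAC and 3.53 ± 0.62 for medium mDP PAC. For medium mDP PAC against water the difference in mean log2(FPKM + 0.1) was -0.44, with a two-sided exact permutation p of 0.0079, the smallest that 5 mice against 5 can give. In edgeR's quasi-likelihood test the log2 fold change was -0.54 ± 0.15 (SE, 95% confidence interval -0.85 to -0.23) with a p of 0.00196, which became an adjusted p of 0.185 over all 14386 genes, so the difference did not pass the threshold of 0.05. The permutation p adjusted over the same genes was 0.171. Of all tested genes 0.646% had all medium mDP PAC mice below all water mice and 3.99% had them all above, on the scale of FPKM, and 17.5% had an exact permutation p under 0.05.

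The Itgae difference between water and medium mDP PAC varied with single mice and with other levels of the tissue. Without water mouse 3, which was highest, the log2 fold change was -0.42, and without medium mDP PAC mouse 5, which was lowest, it was -0.45. The summed level of 8 smooth muscle markers ran from 270 to 915 FPKM for water and from 693 to 1103 FPKM for medium mDP PAC. Water mice 1 and 3 stood at 312 and 270 FPKM, and the other water mice at 862 to 915 FPKM. With the smooth muscle level as a covariate the log2 fold change of Itgae was -0.39 (adjusted p 0.283, edgeR). The part of the muscle layer in the Itgae difference was not tested beyond this fit. The partners of CD103 were less apart. Itgb7, which encodes the beta 7 chain, averaged 5.60 ± 1.60 FPKM (SD, n = 5) for water and 5.52 ± 2.83 for medium mDP PAC. Cdh1, which encodes E-cadherin, averaged 230 ± 14.9 and 218 ± 26.1 FPKM.

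**Figure D1:**
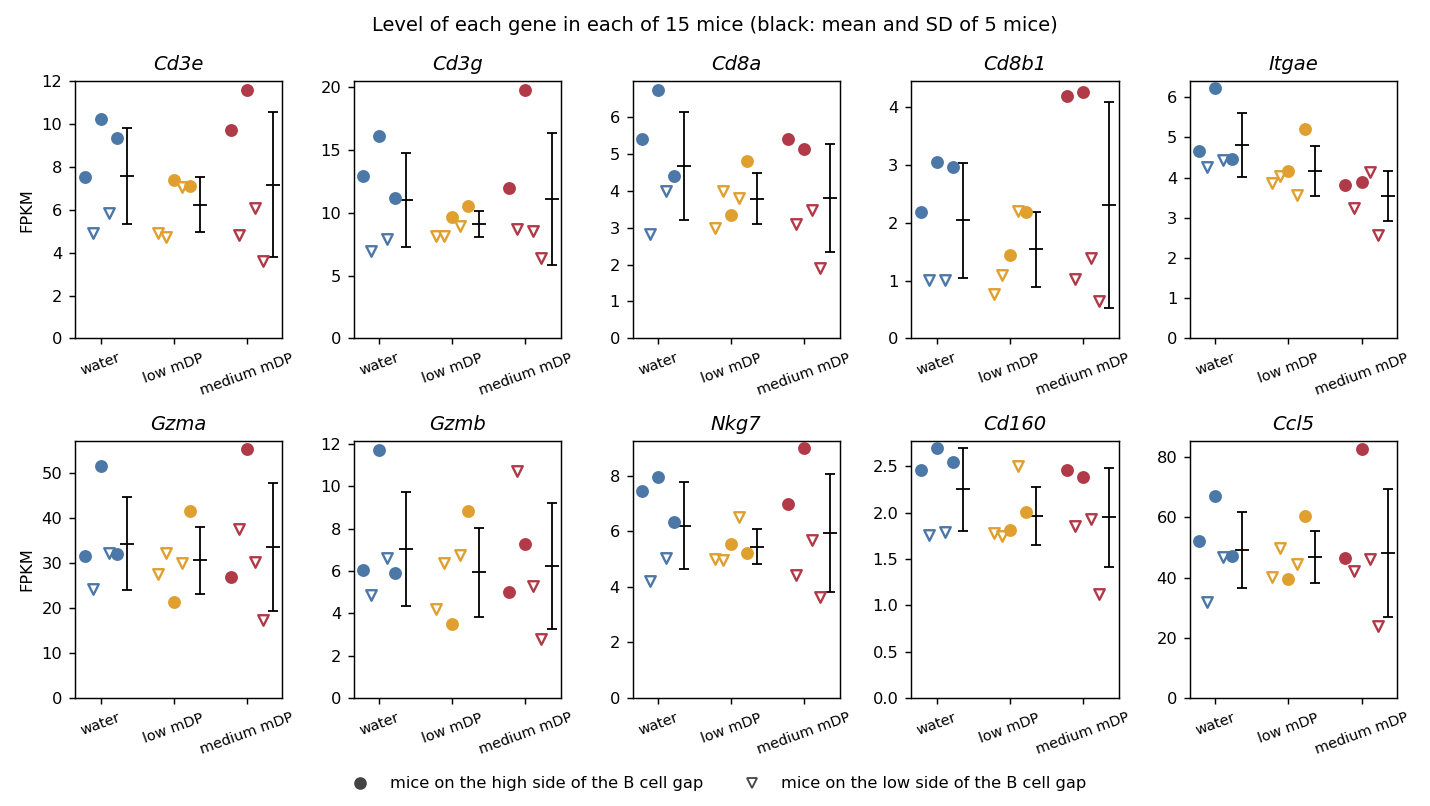
Level of each of the 10 genes in FPKM (linear axis from 0) in the 5 mice of each group, with the mean and SD of 5 mice in black. Filled circles are mice with high and open triangles mice with low B cell marker levels. For Itgae all medium mDP PAC mice (2.58 to 4.13) lie below all water mice (4.26 to 6.22), and for the other 9 genes the groups overlap.

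Granzyme A and granzyme B, encoded by Gzma and Gzmb, are serine proteases that cytotoxic lymphocytes release into target cells. Gzma measured 31.7, 24.2, 51.7, 32.3 and 32.0 FPKM in the water mice. The low mDP PAC mice had 27.6, 32.3, 21.5, 30.03 and 41.7 FPKM of Gzma. The medium mDP PAC mice had 26.8, 37.7, 55.4, 30.2 and 17.4 FPKM. The medium mDP PAC group again held both the lowest and the highest mouse, and its log2 fold change against water was -0.14 ± 0.27 (SE). Gzmb ranged from 4.88 to 11.7 FPKM for water, from 3.51 to 8.82 for low mDP PAC and from 2.81 to 10.7 for medium mDP PAC, with a log2 fold change of -0.27 ± 0.34 for medium mDP PAC against water. Gzma exceeded Gzmb by a ratio of 3.51 to 7.59. Perforin, which lets granzymes into the target, is encoded by Prf1 and was low at 0.42 ± 0.12 FPKM (SD, n = 5) for water, 0.37 ± 0.09 for low mDP PAC and 0.34 ± 0.17 for medium mDP PAC.

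Nkg7 encodes a membrane protein of cytotoxic granules. Its level ran from 4.23 to 7.95 FPKM for water, from 4.98 to 6.51 for low mDP PAC and from 3.63 to 9.0 for medium mDP PAC. Cd160 encodes a receptor of cytotoxic and intraepithelial lymphocytes that binds the herpesvirus entry mediator on epithelial cells. Its level ran from 1.76 to 2.70 FPKM for water, from 1.75 to 2.50 for low mDP PAC and from 1.12 to 2.46 for medium mDP PAC. Tnfrsf14, which encodes that ligand, averaged 16.2 ± 1.94 FPKM (SD, n = 5) for water, 15.6 ± 2.06 for low mDP PAC and 15.3 ± 2.98 for medium mDP PAC. In all 3 genes the groups overlapped.

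Ccl5 encodes a chemokine that effector T cells store and that attracts other leukocytes. It measured 52.3, 32.0, 67.1, 46.9 and 47.1 FPKM in the water mice. In the low mDP PAC mice it measured 40.2, 49.9, 39.6, 44.6 and 60.3 FPKM. In the medium mDP PAC mice it measured 46.6, 42.1, 82.6, 46.1 and 23.8 FPKM. The spread within the medium mDP PAC group covered all mice of the other 2 groups, and the 3 means were 49.1 ± 12.6, 46.9 ± 8.56 and 48.2 ± 21.3 FPKM (SD, n = 5).

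None of the 10 genes passed an adjusted p of 0.05 in edgeR's quasi-likelihood test for medium mDP PAC against water, the comparison that asks what the larger polymers changed in these cells. Over all genes 0.0139% passed. At an unadjusted p under 0.05, 1 of the 10 (Itgae) was lower and 0 were higher, against 10.4% lower, 4.37% higher and 14.8% in either direction of all tested genes, so the share of the list was near the background. This background depends on the scaling: upper-quartile scaling, used in place of TMM, left 5.67% of all genes lower and 10.46% higher, and Itgae was still the only 1 of the 10, at a log2 fold change of -0.48. Without water mouse 2 the count was 2 of 10, with Cd8a at -0.54 (adjusted p 0.346, edgeR), against 9.69% of all genes lower and 4.64% higher in that fit. DESeq2 also called 0 of the 10 genes, with Itgae at an adjusted p of 0.057. The log2 fold change was below 0 for 9 of the 10 genes, with a median of -0.18 against 0.0024 over all tested genes, of which 49.5% were below 0. Apart from Itgae, the values ran from -0.41 for Cd8a to 0.06 for Cd8b1 with adjusted p between 0.451 and 0.962. The median and the number of genes below 0 varied with single mice and with the covariate in the fit. Without water mouse 3 the median was -0.02 with 5 genes below 0. Without medium mDP PAC mouse 5 it was -0.03 with 6 below 0, without medium mDP PAC mouse 3 it was -0.36 with 10 below 0, and with the smooth muscle level as a covariate it was 0.12 with 3 below 0. With the B cell level as the covariate it was -0.14 with 9 below 0. The part of tissue make-up in these values was not tested beyond these fits.

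For low mDP PAC against water, which used the same water mice, edgeR called 0 of the 10 genes, and 0 of the 14386 genes passed. At an unadjusted p under 0.05, 0 of the 10 were lower or higher, against 2.21% lower, 1.4% higher and 3.61% in either direction of all genes, and DESeq2 called 0 of the 10. No gene of the list had groups that did not overlap, against 0.111% of all genes lower and 0.494% higher, and none had an exact permutation p under 0.05, against 4.74%. All 10 log2 fold changes were below 0, as were 54.5% of all genes. They ran from -0.47 for Cd8b1 (95% confidence interval -1.53 to 0.59) to -0.12 for Ccl5 (-0.66 to 0.42), with adjusted p between 0.976 and 0.984. The value of Itgae was -0.26 (-0.57 to 0.04). With the smooth muscle level as a covariate 6 of the 10 were below 0, with a median of -0.05 in place of -0.29. The median was -0.12 with 9 below 0 when the B cell level was the covariate, and -0.15 with 9 below 0 without water mouse 3. Without low mDP PAC mouse 5, Itgae was lower at an unadjusted p under 0.05 (-0.35, adjusted p 0.907, edgeR).

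The 2 PAC preparations, which differ in polymer size, were given at the same dose and for the same time and could be compared directly. Across this 1 pair edgeR called 0 of the 10 genes and 0 of all tested genes for medium against low mDP PAC, and DESeq2 called 0 of the 10. At an unadjusted p under 0.05, 0 of the 10 differed, against 2.05% lower, 1.84% higher and 3.89% in either direction of all genes. The groups overlapped for all 10, while they did not for 0.0904% of all genes on the lower and 0.646% on the higher side, and 0 of the 10 had an exact permutation p under 0.05, against 4.5%. Itgae was lower at an unadjusted p under 0.05 with the B cell level as a covariate (-0.30) and without water mouse 3 (-0.28), medium mDP PAC mouse 4 (-0.35) or low mDP PAC mouse 4 (-0.33), at adjusted p of 0.671 and above. The intervals leave room for differences in either direction. For Cd8b1 the log2 difference was 0.53 (95% confidence interval -0.53 to 1.58), for Cd3g 0.23 (-0.34 to 0.81) and for Itgae -0.28 (-0.59 to 0.03). Of the 10 genes 6 were above 0 and 4 below 0, as were 48.6% of all genes. Without medium mDP PAC mouse 3, 9 were below 0 (median -0.11), and without medium mDP PAC mouse 5, 1 was below 0 (median 0.21), in place of a median of 0.05. The lowest adjusted p was 0.896, which does not show that the preparations act alike on these genes.

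**Figure D2:**
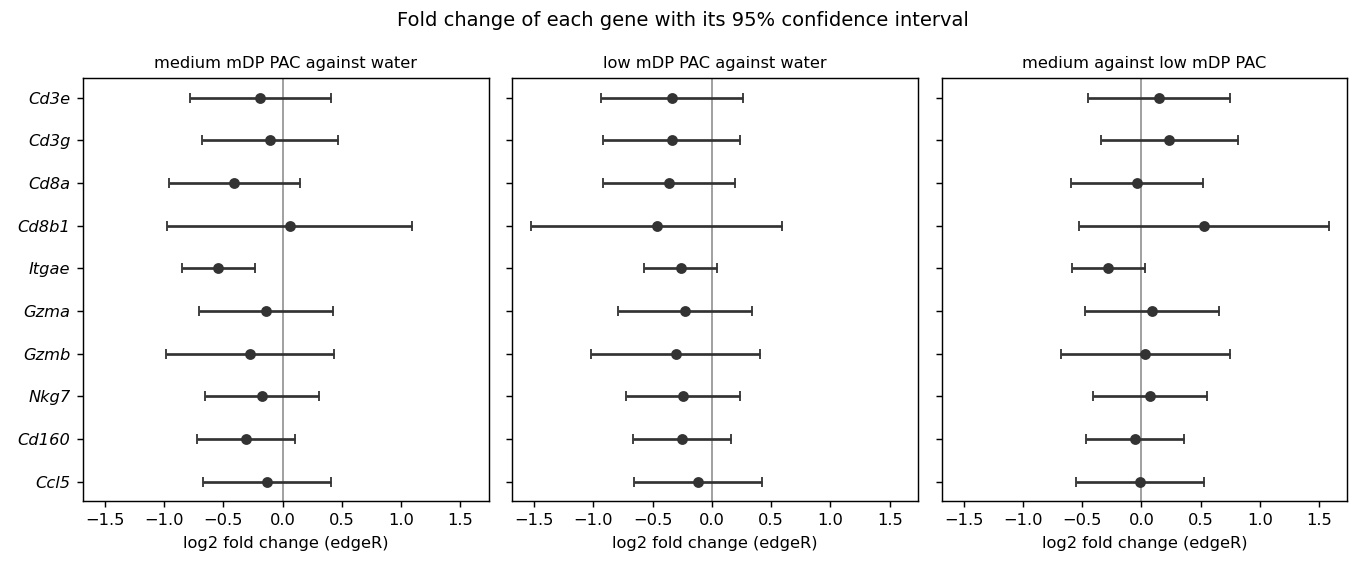
Log2 fold change of each gene (edgeR, x axis) with its 95% confidence interval, in 1 panel per comparison. The interval leaves out 0 for Itgae in medium mDP PAC against water (-0.85 to -0.23, not adjusted for the number of genes), and the other 29 intervals include 0.

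The same mice were at the extremes for many of the genes. Medium mDP PAC mouse 5 had the lowest FPKM of all 15 mice in 10 of the 10 genes, and its summed level of the list was 63.9 FPKM. Medium mDP PAC mouse 3 was highest in 6 of them (Cd3e, Cd3g, Cd8b1, Gzma, Ccl5 and Nkg7), with a sum of 201 FPKM. Water mouse 3 was highest in the other 4 (Cd8a, Itgae, Gzmb and Cd160), with a sum of 184 FPKM. The range within the medium mDP PAC group thus spanned the sums of the water mice (87.1 to 184) and of the low mDP PAC mice (97.9 to 148).

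After the mean of each group was subtracted from log2(FPKM + 0.1), the pairs among the 10 genes ran from weakly to closely related across the 15 mice. Pearson's r of the 45 pairs lay between 0.37 and 0.96, with a median of 0.78. Part of this rests on the extreme mice. These are descriptions over mice that share tissue make-up and library, and no test was made. The closest pair was Cd3e and Cd8b1 (r = 0.96, Spearman's rho 0.92, and r = 0.94 once the 2 mice with the most extreme Cd3e were left out). Cd3g and Nkg7 came close to it (r = 0.92, rho 0.89, and 0.86 without 2 mice), as did Cd3e and Cd3g (r = 0.91, rho 0.87, and 0.84 without 2 mice). For the granzymes Gzma and Gzmb r was 0.88 (rho 0.96, and 0.92 without 2 mice). With 2 mice left out, r fell from 0.59 to 0.20 for Cd3e and Gzma and from 0.63 to 0.26 for Gzma and Nkg7, so these relations rest on those mice. For Cd8a and Gzma r rose instead, from 0.75 to 0.82. The lowest r of all pairs was 0.37 (rho 0.24, and 0.08 without 2 mice) for Cd3e and Gzmb, and the median r of Gzmb with the other 9 genes was 0.57 against 0.86 for Cd3e. Gzma was also close to Ccl5 (r = 0.92, rho 0.74, and 0.83 without 2 mice). Itgae was nearest to Cd8a (r = 0.80, rho 0.75, and 0.71 without 2 mice).

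**Figure D3:**
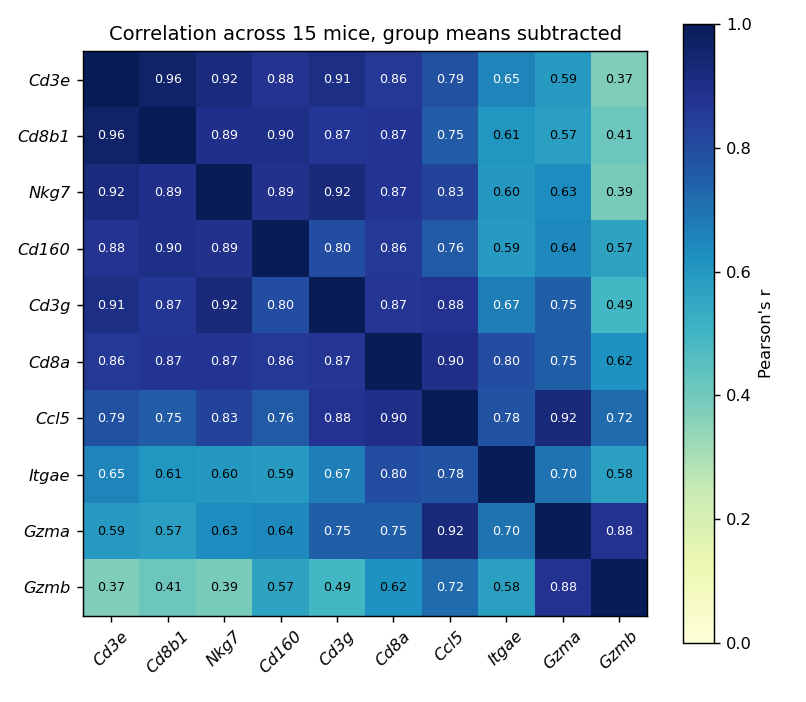
Pearson's r between each pair of the 10 genes across 15 mice, on log2(FPKM + 0.1) with the group means subtracted (colour scale from 0 to 1). Cd3e, Cd8b1, Nkg7, Cd160, Cd3g and Cd8a form a block with r from 0.797 to 0.96. With the genes of this block Gzmb has r from 0.37 to 0.62 and Gzma from 0.57 to 0.75, and r between Gzma and Gzmb is 0.88.

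Levels of the receptor genes moved with the B cells of the tissue. B cells of the ileum lie mainly in Peyer's patches, which also hold T cells. The summed level of 10 B cell markers fell into separate ranges, from 6.66 to 10.9 FPKM in 8 mice and from 79.2 to 260 FPKM in 7 mice. The 7 mice were water mice 1, 3 and 5, low mDP PAC mice 3 and 5 and medium mDP PAC mice 1 and 3, so both ranges held mice of each group. Cd3e was between 3.59 and 7.07 FPKM in the 8 mice and between 7.11 and 11.6 FPKM in the 7 mice, and Cd3g between 6.42 and 8.91 and between 9.63 and 19.8 FPKM. The median of the 7 mice over that of the 8 was 2.92 for Cd8b1, 1.90 for Cd3e, 1.56 for Cd8a and 1.46 for Cd3g. It was 1.40 for Nkg7, 1.38 for Cd160 and 1.21 for Ccl5, and nearest to 1 for Itgae (1.12), Gzma (1.06) and Gzmb (1.04). For Cd4, the coreceptor of helper T cells, it was 1.83, and for Lck, the kinase that CD4 and CD8 bring to the receptor, 2.42. These ranges were set from the data and are not groups of the study, and no test was made.

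Within each range of B cell markers the sign of the Itgae difference was fixed in advance, because every medium mDP PAC mouse was below every water mouse. The mean of log2(FPKM + 0.1) differed by -0.40 between medium mDP PAC (3 mice) and water (2 mice) in the 8 mice, and by -0.38 (2 mice against 3) in the 7 mice. With the B cell level as a covariate the log2 fold change of Itgae was -0.51 (adjusted p 0.141, edgeR). The part of B cell or Peyer's patch content in the Itgae difference was not tested beyond these values. For Cd8b1 the same differences were -0.05 and 0.63, and for Cd3e -0.18 and 0.24. Across mice, r between the mean of the 10 genes and the mean of the B cell markers was 0.24 within the 8 mice and 0.51 within the 7 mice, and no r over all 15 mice is given because the ranges are separate.

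**Figure D4:**
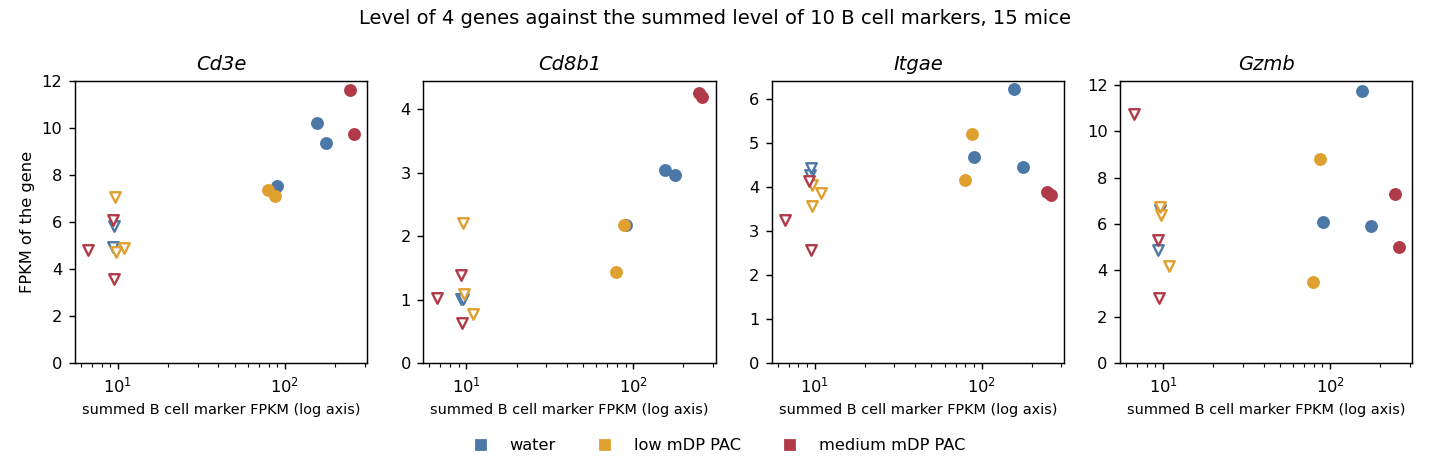
FPKM of Cd3e, Cd8b1, Itgae and Gzmb (y axes from 0) against the summed FPKM of 10 B cell markers (log axis) in 15 mice, coloured by group, with filled circles for the 7 mice from 79.2 to 260 FPKM and open triangles for the 8 mice from 6.66 to 10.9 FPKM. Cd3e does not overlap between the 2 ranges, and Gzmb spans a similar range in both.

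Other genes of the T cell receptor complex and its signalling did not pass a test either. Of 20 such genes 19 were tested, and at an unadjusted p under 0.05 in edgeR 0 were lower and 0 higher in any of the 3 comparisons. Of all tested genes, 14.8% passed that p in either direction when medium mDP PAC was set against water, 3.61% when low mDP PAC was, and 3.89% between the PAC groups. Their median log2 fold change was -0.12 for medium mDP PAC against water, -0.45 for low mDP PAC against water and 0.37 for medium against low mDP PAC. Cd3d, a further CD3 subunit, ranged from 1.18 to 3.61 FPKM for water, from 1.20 to 2.17 for low mDP PAC and from 0.96 to 6.09 for medium mDP PAC. Cd247, the zeta chain, averaged 2.74 ± 0.94, 1.88 ± 0.35 and 2.55 ± 1.46 FPKM (SD, n = 5) in the same order. Zap70, the kinase that the chains recruit, averaged 2.10 ± 0.83, 1.74 ± 0.23 and 2.10 ± 0.81 FPKM. The median log2 fold changes of the B cell markers were 0.10, -1.20 and 1.34 in the same order, on the same side of 0 in the last 2 comparisons but not in the first, and the part of Peyer's patch tissue in them was not tested. Across 15 mice the mean of the 20 genes had r = 0.85 (rho 0.84) with the mean of the 10. This r was 0.74 within the 8 mice with low B cell markers and 0.71 within the 7 mice with high ones.

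Of 28 further genes of intraepithelial and cytotoxic lymphocytes, 25 were tested. For medium mDP PAC against water 2 of the 25 were lower at an unadjusted p under 0.05 (Cd244 and Ahr, the lowest adjusted p in the list being 0.237) and 0 higher, against 10.4% and 4.37% of all genes. For low mDP PAC against water 2 were lower (Cd244 and Gpr55) and 0 higher, against 2.21% and 1.4%, and for medium against low mDP PAC 0 differed, against 3.89% in either direction. Klrd1, a receptor chain of cytotoxic lymphocytes, averaged 3.89 ± 0.83 FPKM for water, 3.27 ± 0.75 for low mDP PAC and 3.63 ± 1.60 for medium mDP PAC (SD, n = 5). Il2rb, the receptor chain that receives IL-15, averaged 2.65 ± 0.86, 2.10 ± 0.33 and 2.38 ± 0.94 FPKM. Runx3, a transcription factor of CD8 T cells, averaged 2.85 ± 0.94, 2.08 ± 0.43 and 2.23 ± 1.05 FPKM. For these 3 genes no edgeR test passed an unadjusted p of 0.05. The mean of the 27 genes of this list with a mean of at least 0.1 FPKM had r = 0.92 (rho 0.85) with the mean of the 10 genes.

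The 19 genes of ligands, receptors and inhibitors that meet the 10 genes, or that keep lymphocytes in the epithelium, were all tested. For medium mDP PAC against water, 7 of the 19 were lower at an unadjusted p under 0.05 and 0 higher, against 10.4% and 4.37% of all genes. With upper-quartile normalization 6 of the 19 were lower, against 5.67% of all genes in that fit. None passed after adjustment, with adjusted p of 0.176 and above. Il15, the cytokine that keeps intraepithelial lymphocytes alive, averaged 7.45 ± 1.31 FPKM for water, 6.81 ± 1.00 for low mDP PAC and 6.16 ± 0.43 for medium mDP PAC (SD, n = 5). Its log2 fold change for medium mDP PAC against water was -0.37, at an adjusted p of 0.255 in edgeR. H2-T3, which encodes the thymus leukaemia antigen that binds CD8 alpha pairs, averaged 60.7 ± 4.43, 56.9 ± 3.68 and 53.7 ± 8.63 FPKM with a log2 fold change of -0.27. Btnl1, an epithelial butyrophilin-like gene that maintains gamma delta T cells, averaged 124 ± 8.46, 112 ± 14.95 and 110 ± 16.1 FPKM, also with -0.27. H2-T3 and Btnl1 have close relatives in the genome, between which their reads could be split. Ccr9, the gut homing receptor, averaged 3.09 ± 0.26, 2.76 ± 0.55 and 2.50 ± 0.55 FPKM with a log2 fold change of -0.40. The other 3 of the 7 were Ccr3 (-1.22), Btnl4 (-0.47) and Cxcl16 (-0.53). They were outside the genes chosen by role and were named after their values were seen. Ccr3 was near the floor, from 0.12 to 0.56 FPKM over all mice. For low mDP PAC against water 2 of the 19 were lower, Ccr3 (-0.82) and Cxcl16 (-0.49), and 0 higher, against 2.21% and 1.4% of all genes, and for medium against low mDP PAC 0 of the 19 differed.

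Of the remaining genes chosen by role none stood apart between groups. Ccl25, the epithelial ligand of CCR9, averaged 457 ± 32.9 FPKM for water, 454 ± 19.1 for low mDP PAC and 496 ± 42.8 for medium mDP PAC (SD, n = 5). Serpinb9, which encodes an inhibitor of granzyme B, averaged 4.37 ± 0.66, 4.34 ± 0.58 and 5.16 ± 0.93 FPKM. Cxcr6, the receptor of CXCL16, averaged 2.47 ± 0.53, 2.20 ± 0.48 and 2.83 ± 1.11 FPKM. Cd4 averaged 5.67 ± 1.75, 4.82 ± 1.01 and 5.14 ± 2.01 FPKM. No edgeR test of these 4 genes passed an unadjusted p of 0.05. Of 10 enterocyte markers 5 were lower and 0 higher at an unadjusted p under 0.05 for medium mDP PAC against water, and 2 were lower with upper-quartile normalization, against 10.4% and 5.67% of all genes lower in these fits. The summed enterocyte level was 11148 to 13541 FPKM for water, 9800 to 12648 for low mDP PAC and 10010 to 12297 for medium mDP PAC. Its part in the values of the partner genes was not tested.

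Among 12054 tested genes outside the lists with a mean of at least 1 FPKM, the 5 most like the mean of the 10 genes across the 15 mice were H2-Aa, Cd74, H2-Eb1, H2-Ab1 and Apol7e. Pearson's r on log2(FPKM + 0.1) with group means subtracted was 0.97 for H2-Aa (rho 0.89, and r = 0.94 without 2 mice), 0.96 for Cd74, 0.94 for H2-Eb1, 0.93 for H2-Ab1 and 0.91 for Apol7e. H2-Aa, H2-Eb1 and H2-Ab1 encode chains of MHC class II, which presents peptides to helper T cells, and Cd74 encodes the invariant chain that accompanies it. H2-Aa measured 432, 276, 656, 344 and 416 FPKM in the water mice. With low mDP PAC it measured 272, 304, 308, 332 and 413 FPKM, and with medium mDP PAC 404, 363, 560, 269 and 171 FPKM. Its lowest mouse was medium mDP PAC mouse 5, as for the 10 genes, and its highest was water mouse 3. The 5 were the top of a ranking, so their r is a description.

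**Figure D5:**
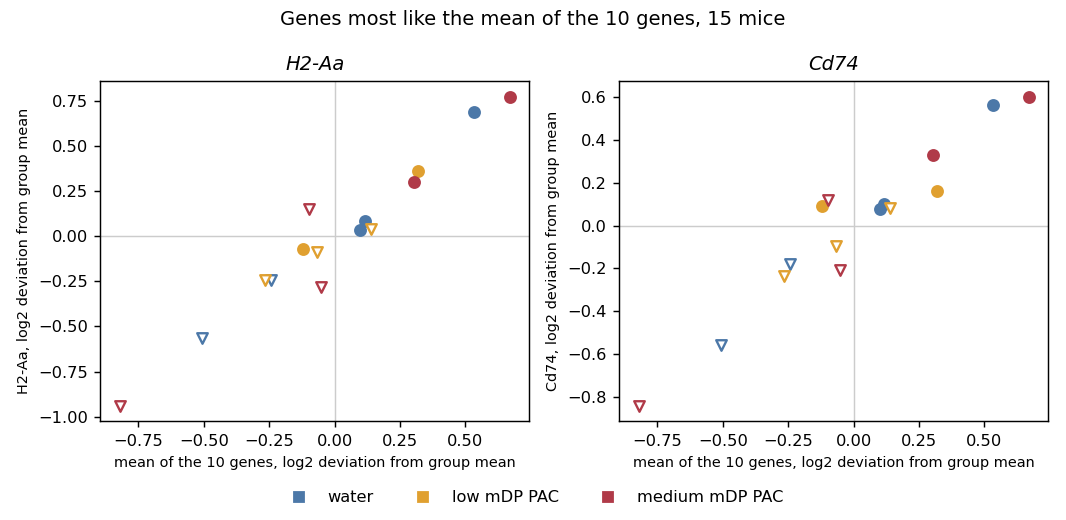
Deviation of H2-Aa (left) and Cd74 (right) from the group mean against the deviation of the mean of the 10 genes, both on log2(FPKM + 0.1), in 15 mice coloured by group. Filled circles are the 7 mice with high and open triangles the 8 mice with low B cell markers. The points follow a line (r = 0.97 and 0.96), with medium mDP PAC mouse 5 at the lower left.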

How the data were processed

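Total RNA of the ileum of 15 mice (5 per group) was sequenced as paired-end reads on a BGISEQ-500. The authors cleaned the reads with SOAPnuke and mapped them to mm10 with Bowtie2, per the methods, while the submitters' processing notes name HISAT and DESeq2 without a role. They deposited 1 table per mouse with an expected count per gene (an estimate of its read pairs, not normalized) and an FPKM value, scaled by gene length and library. The tool that estimated the counts is not given in the sources used here. Whole numbers made up 88.6% to 89.5% of these counts, depending on the mouse.

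Rounded expected counts entered edgeR 4.0.16 (TMM, filterByExpr, quasi-likelihood test) under R 4.3.3, in 1 model of all 15 mice over 14386 genes with Benjamini-Hochberg adjustment, and a gene was called at an adjusted p under 0.05. The study named NOIseq, which was not used here. Standard errors follow from the test statistic. Group differences of single genes in log2(FPKM + 0.1) were tested by exact permutation, two-sided. Alternatives were DESeq2 1.42.0, limma 3.58.1 on log2 FPKM, upper-quartile normalization, no filter, a replicate block, fits of 2 groups, each mouse left out, and, added after the data were seen, B cell or smooth muscle marker levels as covariates. Depth was 15963086 to 17903886 counts per mouse. No mouse was left out, and no pair of mice shared values beyond 0.898% of well-counted genes. The model was tested on simulated data. The text names the 10 genes, partner genes chosen by role (some are not reported here) and the 5 genes most like the mean of the 10. The members and all lists were chosen with earlier results of these data known. Coordinates are from GENCODE and promoters from RefSeq, both GRCm38. Summaries used Python 3.11.15 with pandas 2.3.3, numpy 2.4.6 and scipy 1.17.1, and plots matplotlib 3.10.9.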

Additional observations from a re-analysis of the deposited data

Results flagged for a closer look

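Each of the 10 genes and the 20 partner genes was examined in each group for a mouse far from the other 4, over 90 groups of 5 mice in all, of which chance marks about 1 in 20. By Dixon's criterion 3 values stood out. Itgae in water mouse 3 was 6.22 FPKM, while the other water mice had 4.26 to 4.67 FPKM. Gzmb in the same mouse was 11.7 FPKM, against 4.88 to 6.61 FPKM in the others. Btnl1 in medium mDP PAC mouse 3 was 81.7 FPKM, against 112 to 123 FPKM in the others of its group. Without water mouse 3 the Itgae log2 fold change for medium mDP PAC against water was -0.42 (adjusted p 0.372, edgeR).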

How the results depend on the processing

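In all 3 comparisons 0 of the 10 genes were called under every alternative run, each mouse left out included. Itgae kept its sign for medium mDP PAC against water in all of them, from -0.62 to -0.42 with a mouse left out (adjusted p 0.121 to 0.372) and from -0.54 to -0.36 in the other fits (adjusted p 0.057 to 0.320). Genes called in all differed more. For medium mDP PAC against water edgeR called 2, DESeq2 112, limma 9, edgeR on the 2 groups 4, and edgeR without medium mDP PAC mouse 2 called 11. For low mDP PAC against water edgeR called 0, at most 1 with a mouse left out, and DESeq2 2. The cause was not tested. Of the genes with an unadjusted p under 0.05 for medium mDP PAC against water 70.5% were lower in the main fit, 58.8% with DESeq2, 35.2% with upper-quartile normalization and 18.9% with limma on log2(FPKM + 0.1).

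The signs of small differences changed. With the smooth muscle level as a covariate the log2 fold change for medium mDP PAC against water was 0.082 for Cd3e, 0.30 for Cd3g, 0.17 for Gzma, 0.062 for Gzmb, 0.18 for Ccl5 and 0.17 for Nkg7. For low mDP PAC against water it was 0.030 for Cd3g, 0.041 for Gzma, 0.16 for Ccl5 and 0.039 for Nkg7, and for medium against low mDP PAC 0.013 for Cd8a and 0.020 for Ccl5. With the B cell level it was 0.014 for Ccl5 in low mDP PAC against water, and -0.024 for Cd3e and -0.030 for Nkg7 in medium against low mDP PAC. Limma gave -0.045 on log2(FPKM + 0.1) and 0.015 on log2(FPKM + 1) for Cd8b1 in medium mDP PAC against water, and upper-quartile normalization 0.024 for Ccl5 in medium against low mDP PAC.

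With a mouse left out, medium against low mDP PAC ran from -0.27 to 0.16 for Ccl5, -0.14 to 0.094 for Cd160, -0.071 to 0.32 for Cd3e, -0.058 to 0.38 for Cd3g, -0.19 to 0.13 for Cd8a, -0.15 to 0.25 for Gzma, -0.27 to 0.22 for Gzmb and -0.10 to 0.21 for Nkg7. Medium mDP PAC against water ran from -0.37 to 0.037 for Ccl5, -0.37 to 0.084 for Cd3g, -0.26 to 0.30 for Cd8b1, -0.35 to 0.068 for Gzma and -0.58 to 0.0013 for Gzmb, and low mDP PAC against water from -0.25 to 0.032 for Ccl5. Without low mDP PAC mouse 5 the exact permutation p of Itgae for low mDP PAC against water was 0.0159, against 0.175 with all mice.

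The replicate block, the mouse number added to the model, called 0 of the 10 genes in each comparison and 2, 0 and 0 genes in all, and gave Itgae -0.53 for medium mDP PAC against water and Gzmb -0.037 for medium against low mDP PAC. Of 5 same-numbered pairs 3, 2 and 0 had deviations with r over 0.1. The mean r of same-numbered mice was 0.15, 0.12 and -0.12 in these comparisons, against -0.038, -0.031 and 0.032 for mice with different numbers. Whether the numbers mark pairs was not tested beyond this. Depth limits Cd8b1, whose lowest count was 15.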

Other observations

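Mucosal mast cells lie in the epithelium beside intraepithelial lymphocytes. Among the cell type lists, their genes held the widest differences in both comparisons with medium mDP PAC. For low mDP PAC against water the B cell markers ran further (-1.53 to -1.08) than the mast cell genes (-0.52 to 0.14). The widest values came from Mcpt1 and Mcpt2, which were low in many mice. They ran from 0.36 to 8.22 FPKM (median 1.14) and from 0.06 to 5.54 FPKM (median 0.52). Their standard errors in edgeR for medium mDP PAC against water were 0.74 and 0.87. Of 4 genes 3 were tested, and for medium mDP PAC against water 2 of them were lower at an unadjusted p under 0.05 in edgeR, the proteases Mcpt1 with a log2 fold change of -1.96 and Mcpt2 with -2.76, against 10.4% of all genes lower. On log2(FPKM + 0.1) the differences were -1.28 for Mcpt1 (two-sided exact permutation p 0.0873) and -1.60 for Mcpt2 (exact p 0.119). The third, the receptor gene Kit, was at 0.25 in edgeR and 0.37 on log2(FPKM + 0.1) (exact p 0.0317, adjusted p 0.241). None passed after adjustment (lowest adjusted p 0.217), and the replicate block left 1 of them lower. For medium against low mDP PAC, Mcpt1 was at -1.72 and Mcpt2 at -2.24, so 2 of 3 were lower at an unadjusted p under 0.05 against 2.05% of all genes (adjusted p 0.896 in edgeR), and the exact permutation p was 0.0238 for each (adjusted p 0.946). For medium mDP PAC against water the macrophage and plasma cell lists each held 1 lower gene, of 8 and of 6. The NK cell, B cell and smooth muscle lists held 0 in either direction at an unadjusted p under 0.05. All 8 smooth muscle markers had log2 fold changes above 0 in each of the 3 comparisons. The median was 0.42 for medium mDP PAC against water, 0.32 for low mDP PAC against water and 0.11 for medium against low mDP PAC. Water mice 1 and 3 had low sums of these markers, 312 and 270 FPKM, while the other water mice had 862 to 915 FPKM.

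Once group means were removed, the mean of the 10 T cell genes across 15 mice had Pearson's r of -0.59 (Spearman's rho -0.70, and r = -0.52 without 2 mice) with the mean of the smooth muscle markers, 0.03 with that of the macrophage markers (rho -0.14) and -0.38 with that of the enterocyte markers (rho -0.29, and r = -0.01 without 2 mice). With the means of the plasma cell, NK cell and helper T cell genes r was 0.75, 0.73 and 0.79 (rho 0.64, 0.66 and 0.80). Within the 8 mice with low B cell markers these 3 values of r were 0.51, 0.40 and 0.46. Within the 7 mice with high ones they were 0.50, 0.76 and 0.66. The points share their libraries, and these values are descriptions.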
